A study of Rattus norvegicus with 12 samples.

Results

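Gene expression in 2 lines labelled rat induced pluripotent stem (iPS) cells was set against 2 lines whose arrays share an embryonic stem (ES) cell profile. The iPS lines are FHH-IPS-A1 and FHH-IPS-A2, called A1 and A2 below, and the other lines are DAC2 and FHH-REF2. Each line had 2 arrays, so 8 of the 12 arrays of the series entered the comparison. DAC2 is labelled as an ES line. REF2 is labelled as an embryonic fibroblast culture, and it was chosen by its measured expression profile over all genes, which resembles that of DAC2, and against its label. That grouping follows the values, so no p-value is given for 4 arrays against 4, differences from the arrays labelled REF2 are a description, and p-values are printed only for A1 or A2 against DAC2. The remaining 4 arrays, of the line labelled DAC8 (ES) and the culture labelled REF1 (fibroblast), had a fibroblast-like profile and serve as context.

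Per the labels, A1 and A2 come from the FHH rat strain, and the series title states that iPS cells were derived with a transposon system. They were kept on mitomycin C-treated mouse embryonic fibroblasts in knock-out medium with leukemia inhibitory factor, and the treatment protocol names 2i medium for both iPS and ES cells. Whether the mouse feeder cells were removed before RNA extraction is not stated. The strain behind DAC2 is not given. The arrays labelled REF2 are described as FHH fibroblasts from e14.5 embryos in MEF medium. RNA was taken 5 days after passage from A1, A2 and DAC2, and 6 days after passage from the culture labelled REF2. In the labels, SSEA-1, Oct4, Nanog and Sox2 are recorded as present in the iPS and ES lines. Nothing states that a line's arrays stem from different cultures; a p-value thus reflects array-to-array spread alone, and this may be technical.

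Rodent ES cells grown with leukemia inhibitory factor and inhibitors of MEK and GSK3 (the 2i condition) are known to keep a naive pluripotent state, run by transcription factors such as Esrrb, Klf2, Klf4, Klf5, Tfcp2l1 and Sox2. These cells grow as compact colonies held together by E-cadherin and other epithelial junction proteins. Sox2 also acts in neural progenitors, where it is found together with proneural basic helix-loop-helix factors, Notch receptors and, as neurons form, cytoskeletal and growth cone proteins. Vimentin, N-cadherin and the Zeb factors mark cells without epithelial junctions, among them neural progenitors and fibroblasts.

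Levels are deposited log2 signals, and a difference of 1 log2 unit is a 2-fold difference. The 12 arrays had medians of 5.28 to 5.41, and 53.6 to 54.6% of probe sets lay at or above 5. A gene was tested when the mean of at least 1 line reached 5. A level below 5 is not shown to be above background here, so a difference from such a level is a size on the array scale and not a measured fold. The 3′ minus 5′ difference of the beta-actin control probe sets, a sign of RNA quality, was 0.84 to 0.87 in the iPS arrays, 0.88 in DAC2 and 0.94 to 1.05 in the arrays labelled REF2; in the 4 fibroblast-profile arrays it was 0.42 to 0.52. Over the 11001 genes tested, the mean Pearson correlation between arrays was 0.994 for A1 with A2 and 0.975 for DAC2 with REF2. It was 0.752 to 0.761 between either iPS line and either ES-profile line, and 0.636 between REF2 and REF1, which carry the same cell type label. These points are genes on shared arrays, so the correlations are descriptions.

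The markers that define the comparison separated the 2 sets of arrays without overlap, as held for 71.6% of all genes tested. Esrrb, an orphan nuclear receptor of the naive network, read 4.66 and 4.88 in A1, 4.79 and 4.85 in A2, 10.29 and 10.28 in DAC2 and 9.98 and 9.94 in REF2. Epcam, an epithelial surface glycoprotein, read 4.09 and 3.79 in A1, 3.48 and 3.38 in A2, 11.88 and 11.80 in DAC2 and 11.60 and 11.50 in REF2. Klf5, a Krüppel-like factor of the same network, read 4.83 and 4.99 in A1, 5.29 and 5.37 in A2, 11.57 and 11.62 in DAC2 and 11.47 and 11.46 in REF2. All 3 were low in the 4 iPS arrays and high in the 4 ES-profile arrays, with line differences of 5.15 to 5.51 for Esrrb, 7.61 to 8.40 for Epcam and 6.14 to 6.69 log2 units for Klf5. Gap43, a growth cone phosphoprotein of neurons, read 12.33 and 12.37 in A1, 12.47 and 12.40 in A2, 3.47 and 3.49 in DAC2 and 3.58 and 3.83 in REF2. Vim, the intermediate filament vimentin, read 12.56 and 12.47 in A1, 12.48 and 12.56 in A2, 4.87 and 4.89 in DAC2 and 5.78 and 5.62 in REF2. Both were high in the iPS arrays, by 8.65 to 8.96 log2 units for Gap43 and 6.81 to 7.63 for Vim. A second Gap43 probe set differed by -0.22 log2 units, so the Gap43 result rests on 1 probe set. These markers were part of how the comparison was chosen, so no test is given for them.

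**Figure D1:**
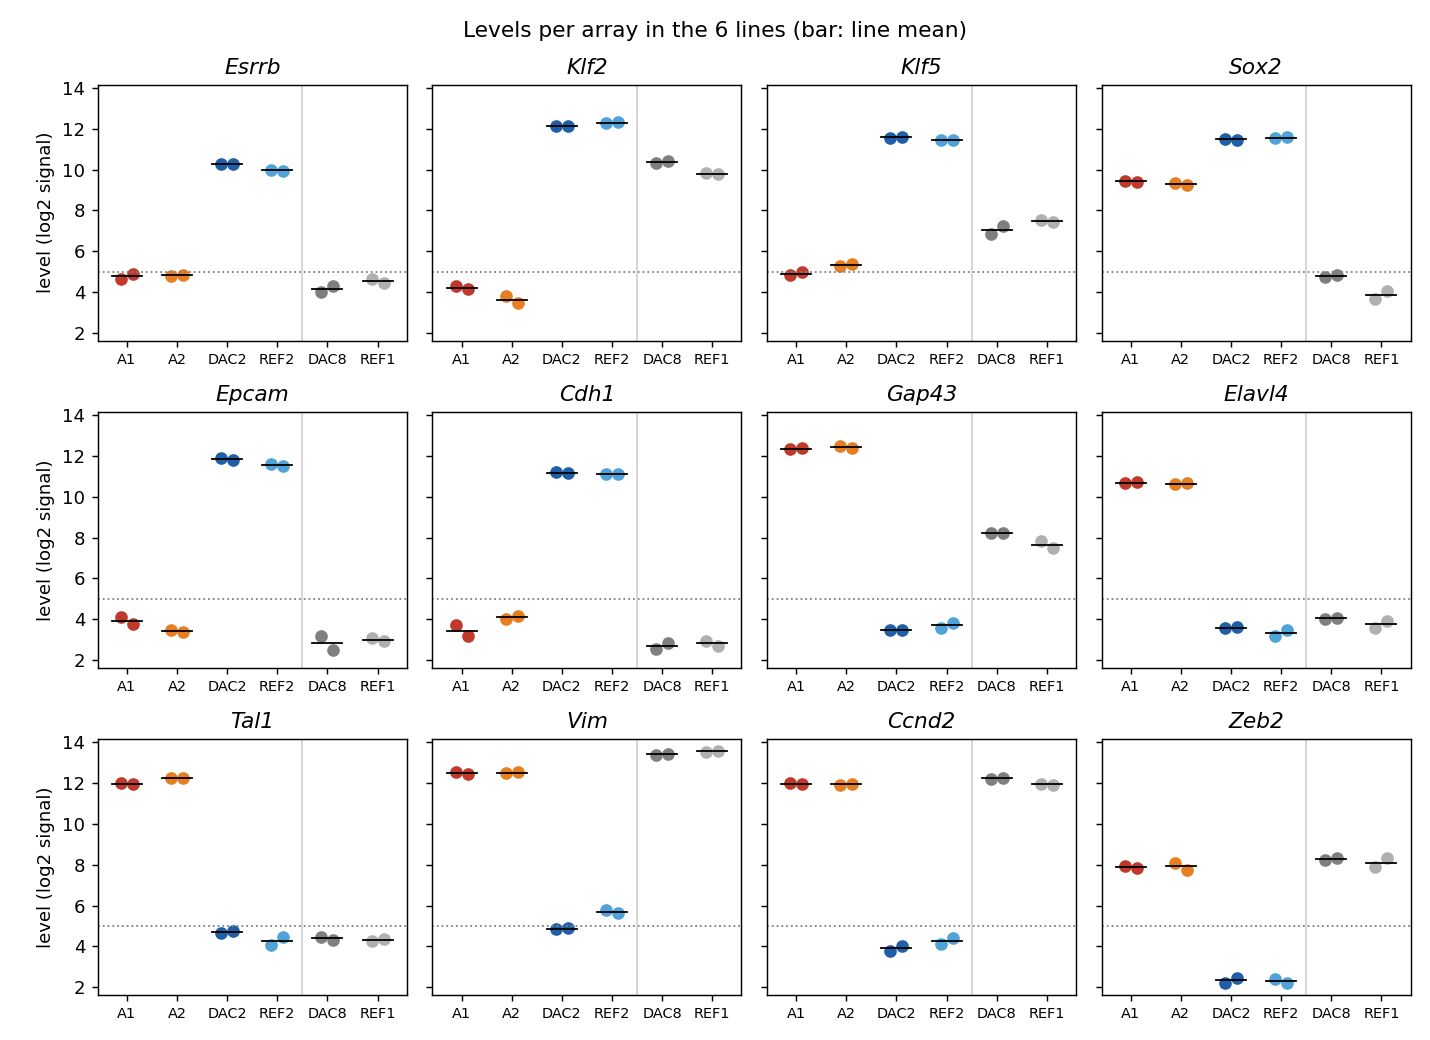
Level (log2 signal, y axis) of 12 genes in each array of the 6 lines (x axis); points are arrays, bars are line means, the dotted line is the level of 5 and the vertical line sets off DAC8 and REF1. In all 12 panels the iPS arrays lie apart from the arrays of DAC2 and REF2, as held for 71.6% of all genes tested. Sox2 is the gene of the first row with iPS levels above 9, at 9.25 to 9.46.

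A gene was called in a line pair when it differed by at least 1 log2 unit with an adjusted p under 0.05. A1 against DAC2 gave 3275 called genes (29.8% of 11001), A1 against REF2 gave 3365 (30.6%), A2 against DAC2 gave 3313 (30.1%) and A2 against REF2 gave 3425 (31.1%). Every line difference of at least 1 log2 unit also passed the p threshold, so these counts follow from size. In all 4 line pairs, 1430 genes (13%) were higher in the iPS lines and 1163 genes (10.6%) were lower. Of the higher genes, 595 (5.41% of genes tested) lay below 5 in every ES-profile array, and of the lower genes, 426 (3.87%) lay below 5 in every iPS array. At a difference of at least 2 log2 units in each line pair, 674 genes (6.13%) were higher and 480 (4.36%) were lower. By contrast, 6856 genes (62.3%) stayed under 1 log2 unit in all 4 line pairs, and 5895 genes (53.6% of those tested) also lay at or above 5 in all 8 arrays. The counts for DAC2 and REF2 share the iPS arrays. A1 and A2 differed from each other by at least 1 log2 unit in 25 genes (0.227%), and DAC2 and REF2 in 440 genes (4%). Below, "higher" and "lower" are used for genes called in all 4 line pairs. The word "similar" is used for genes under 1 log2 unit in all 4, which is a statement of size and not of equality. A similar gene can lie below 5 in all 8 arrays when DAC8 or REF1 brought it into the test. Counts of list members are to be read beside the shares over all genes, 13% higher, 10.6% lower and 62.3% similar.

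**Figure D2:**
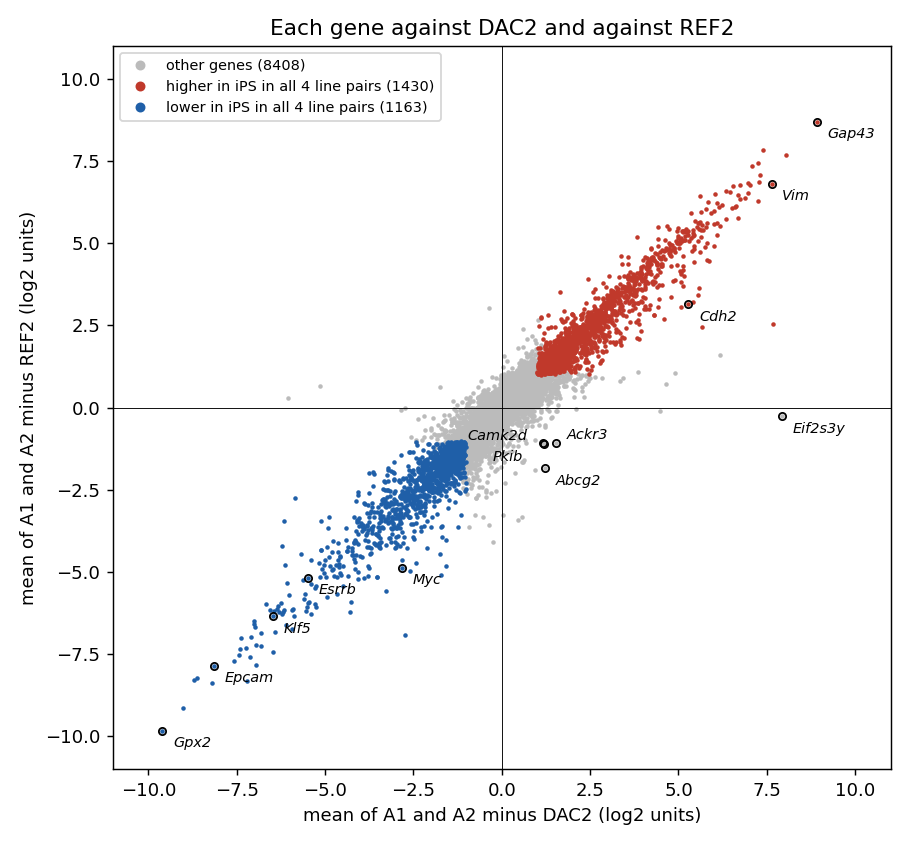
Each gene's difference from DAC2 (x axis) and from REF2 (y axis), as the mean of A1 and A2 minus the line (log2 units); red points are the 1430 genes higher and blue points the 1163 genes lower in the iPS lines in all 4 line pairs. Both axes share the iPS arrays, so points near the diagonal are built in; Eif2s3y, Abcg2, Ackr3, Camk2d and Pkib lie off it.

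Ranked by the smallest of the 4 line differences, the 10 highest genes in the iPS lines were Gap43, Ccnd2, Tal1, Gpm6b, Zcchc18, Elavl4, Vim, Fez1, Rtn1 and Pclaf. Ccnd2, which encodes cyclin D2, read 12.02 and 11.94 in A1, 11.92 and 11.95 in A2, 3.79 and 4.02 in DAC2 and 4.13 and 4.44 in REF2. Tal1, a basic helix-loop-helix factor of blood and of GABAergic neuron development, read 12.01 and 11.95 in A1, 12.23 and 12.26 in A2, 4.66 and 4.77 in DAC2 and 4.07 and 4.45 in REF2. Elavl4, an RNA-binding protein of neurons, read 10.69 and 10.71 in A1, 10.62 and 10.66 in A2, 3.58 and 3.61 in DAC2 and 3.19 and 3.47 in REF2. None of the 3 reached 5 in an ES-profile array, and all lay above 10 in the iPS arrays. Tal1 lost its call when every probe set that reached 5 in a line mean had to pass, and its second probe set differed by only 0.29. The 10 lowest genes were Gpx2, Fcrla, Crxos1, Ooep, Klf2, Epcam, Apoe, Rpl39l1, Tex15 and Apoc1. Gpx2, a glutathione peroxidase of epithelia, read 2.99 and 2.82 in A1, 3.03 and 2.76 in A2, 12.52 and 12.50 in DAC2 and 12.74 and 12.71 in REF2. Ooep, an oocyte protein of the subcortical maternal complex, lay at 2.78 to 3.33 in the iPS arrays and 11.38 to 11.78 in the ES-profile arrays. Apoe, a lipoprotein component, lay at 4.30 to 4.82 against 12.14 to 12.35. Every iPS array was below every ES-profile array for these 3 genes, which were picked for large differences. The sets of arrays did not overlap in 71.6% of all genes tested. All 3 genes lay below 5 in the 4 iPS arrays. The second probe sets of Apoe and Fcrla differed by only -0.51 and -0.37 log2 units. In limma with Benjamini-Hochberg adjustment over all genes tested, the larger adjusted p of the 2 iPS lines against DAC2 was 4.91e-11 for Ccnd2. It was 9.04e-11 for Tal1, 4.58e-11 for Gpx2 and 3.63e-10 for Apoe. The genes were picked for the size of these same differences, so small p-values were built in and add no support.

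**Figure D3:**
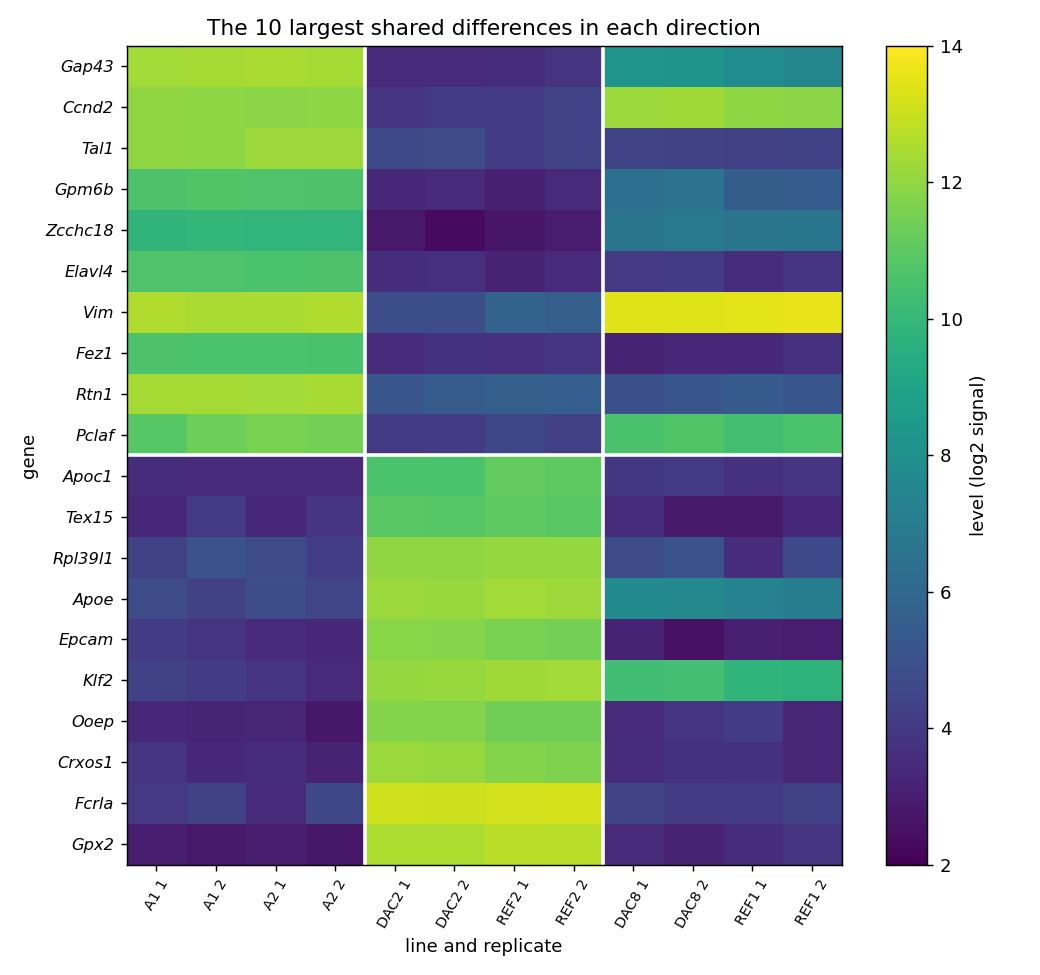
Level (log2 signal, colour) of the 10 genes highest and the 10 genes lowest in the iPS lines (rows) in each of the 12 arrays (columns); white lines set off the line sets and the directions. Gpx2 runs from 2.76 to 3.03 in the iPS arrays to 12.50 to 12.74 in DAC2 and REF2, and Ccnd2 and Vim are also high in DAC8 and REF1.

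Pluripotency factors were mostly lower in the iPS lines. Of 28 list members on the array, 25 were tested: 18 were lower, 0 were higher and 4 were similar, against 10.6% lower and 13% higher over all genes. The list's median difference was -2.39 log2 units, against -0.06 over all genes tested. Klf2 read 4.30 and 4.14 in A1, 3.81 and 3.47 in A2, 12.12 and 12.14 in DAC2 and 12.29 and 12.32 in REF2. Klf4, a factor used in reprogramming, read 6.80 and 6.90 in A1, 6.2 and 6.11 in A2, 10.02 and 9.99 in DAC2 and 9.49 and 9.54 in REF2. Both Krüppel-like factors were low in the iPS arrays, Klf2 below 5 throughout and Klf4 above 6. Tfcp2l1, a partner of Esrrb, lay at 4.15 to 4.40 against 9.79 to 10.01. Gbx2, a homeobox target of leukemia inhibitory factor signalling, lay at 3.96 to 4.26 against 9.27 to 9.48. Tbx3, a T-box factor of the naive network, had line means of 4.87 in A1, 4.89 in A2, 8.91 in DAC2 and 8.25 in REF2, and Tet2, a DNA hydroxylase, lay at 7.54 to 7.84 against 10.36 to 10.67. Of these, Tfcp2l1 and Gbx2 were below 5 in all iPS arrays and Tet2 was not.

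Some pluripotency genes were lower while their iPS line means stayed above 5. Sox2 read 9.46 and 9.40 in A1, 9.36 and 9.25 in A2, 11.52 and 11.44 in DAC2 and 11.53 and 11.60 in REF2, so it was lower by 2.05 to 2.26 log2 units yet above 9 in every iPS array. Sall4, a zinc finger partner of Oct4, had line means of 8.22 in A1, 8.25 in A2, 10.82 in DAC2 and 10.43 in REF2. Lin28a, an RNA-binding inhibitor of let-7 processing, had line means of 5.34 in A1, 5.85 in A2, 9.68 in DAC2 and 8.17 in REF2. The 3 genes were lower in both iPS lines. In DAC8 and REF1 their line means were 4.79 and 3.86 for Sox2, 3.29 and 3.55 for Sall4 and 3.23 and 2.96 for Lin28a. Klf2, Klf4 and Klf5 went the other way, with DAC8 and REF1 above both iPS lines. Their means there were 10.36 and 9.81 for Klf2, 8.72 and 7.65 for Klf4 and 7.06 and 7.48 for Klf5. Fbxo15 at 6.26 to 6.47 against 6.44 to 6.67, Socs3 at 6.48 to 6.64 against 7.0 to 7.41 and Alpl at 7.07 to 7.24 against 7.02 to 7.80 were similar; Alpl encodes the alkaline phosphatase used to stain stem cell colonies. Stat3, the effector of leukemia inhibitory factor, had line means of 8.37 in A1, 8.39 in A2, 9.08 in DAC2 and 9.73 in REF2 and did not pass in every pair. Oct4 and Nanog were not analysed here. Within the list, Esrrb, Klf2 and Tfcp2l1 lay below 5 in every iPS array, while Sox2, Sall4 and Alpl lay above 7 in both iPS lines. Klf2 lost its call when every probe set of a gene that reached 5 in a line mean had to pass.

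Of 10 genes of the primed state, the later form of pluripotency, 6 were tested. Of these 4 were lower and 1 was higher, and the median difference was -1.46 log2 units. Dnmt3b, a de novo DNA methyltransferase, lay at 4.72 to 4.86 against 6.40 to 6.71. Eomes, a T-box factor, lay at 2.90 to 4.37 against 6.76 to 7.68. Sall2 was the higher member, at 5.92 to 6.33 against 3.53 to 3.79.

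Epithelial junction and keratin genes were also mostly lower. Of 31 on the array 30 were tested; 22 were lower, 0 were higher and 5 were similar, and the median difference was -2.56 log2 units. Cdh1, which encodes E-cadherin, read 3.72 and 3.18 in A1, 4.03 and 4.18 in A2, 11.21 and 11.17 in DAC2 and 11.14 and 11.10 in REF2. A second Cdh1 probe set differed by only -0.16 log2 units. Tmem30b, a flippase subunit of epithelia, lay at 3.23 to 3.89 against 10.52 to 10.67. Krt18, a keratin of simple epithelia, lay at 2.24 to 3.69 against 10.32 to 11.55, and Krt19 at 2.94 to 4.12 against 10.08 to 11.17. All 4 genes were below 5 in the iPS arrays and above 10 in the ES-profile arrays. Further lower members were the tight junction genes Cldn7, with line means of 3.96 in A1, 3.81 in A2, 6.91 in DAC2 and 8.17 in REF2, and Lsr, with 4.75 in A1, 3.86 in A2, 8.23 in DAC2 and 7.87 in REF2. Ap1m2, a sorting adaptor of epithelial cells, had line means of 3.48 in A1, 4.08 in A2, 6.99 in DAC2 and 5.68 in REF2. Similar members were Jup, at 7.05 to 7.15 against 6.67 to 7.38, Rab25, at 5.05 to 5.25 against 5.21 to 5.70, and Krt7, below 5 in all 8 arrays. In DAC8 and REF1, line means were also low for Epcam (2.84 and 3.0), Cdh1 (2.69 and 2.82) and Krt18 (2.90 and 3.37). Other members lay above both iPS lines there, with means of 8.03 and 8.49 for Tmem30b and 7.17 and 6.09 for Krt19. Jup had 9.34 and 9.31, and Krt7 had 6.12 and 6.02.

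The promoters of epithelial genes are shown for the E-box of the letters CACCTG, which Zeb1 and Zeb2 are known in general to bind. Whether these factors acted on the genes here was not tested. The 250 bases before the start of each gene were read from RefSeq (assembly GRCr8), for the 9149 tested genes with a window. Motifs were searched on both strands: the E-box CANNTG with its subset CACCTG, the GC box GGGCGG, the box known by the letters CCAAT, the TATA box as TATAAA and the nuclear receptor half-site AAGGTCA. The E-box CACCTG lay in 14.7% of the tested genes' windows and in 15.6% of all 27457 windows of the table. It lay in 21.1% of 939 windows of lower genes, 12% of 1133 windows of higher genes and 13.7% of 5806 windows of similar genes. Among the lower epithelial genes, 15 of 16 windows held it (93.8%), and among tested epithelial members that were not lower, 4 of 5 did (80%), so the share was high among list members of either kind. In higher genes of the neuronal cytoskeleton list, 2 of 25 windows held it (8%). For GGGCGG, the shares were 61.4% in lower and 61.4% in higher genes. The motif comparison and the examples were chosen after the values were seen. A match describes letters in a window, and no binding was measured. The sequences below run 5′ to 3′ on the gene's strand with CACCTG, or its reverse complement CAGGTG, in capitals: Epcam (chr6:12649679-12649928, minus strand), Cldn7 (chr10:55188420-55188669, plus strand), Ap1m2 (chr8:28132643-28132892, minus strand), Tmem30b (chr6:97990547-97990796, minus strand) and Krt18 (chr7:135035918-135036167, plus strand).
Epcam: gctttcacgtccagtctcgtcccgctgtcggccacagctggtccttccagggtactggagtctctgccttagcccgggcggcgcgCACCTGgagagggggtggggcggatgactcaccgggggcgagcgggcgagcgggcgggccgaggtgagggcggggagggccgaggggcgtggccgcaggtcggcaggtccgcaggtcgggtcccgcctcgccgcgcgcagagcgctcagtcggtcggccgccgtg
Cldn7: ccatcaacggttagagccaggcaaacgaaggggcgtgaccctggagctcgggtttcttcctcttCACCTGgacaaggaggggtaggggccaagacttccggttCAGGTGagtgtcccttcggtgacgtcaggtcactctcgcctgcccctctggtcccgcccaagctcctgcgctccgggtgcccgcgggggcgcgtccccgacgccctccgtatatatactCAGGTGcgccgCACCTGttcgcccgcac
Ap1m2: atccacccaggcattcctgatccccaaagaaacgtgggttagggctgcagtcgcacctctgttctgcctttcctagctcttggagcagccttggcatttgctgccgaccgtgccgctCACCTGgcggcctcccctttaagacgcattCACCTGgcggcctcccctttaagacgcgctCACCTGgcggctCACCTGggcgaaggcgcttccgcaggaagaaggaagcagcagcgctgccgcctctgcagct
Tmem30b: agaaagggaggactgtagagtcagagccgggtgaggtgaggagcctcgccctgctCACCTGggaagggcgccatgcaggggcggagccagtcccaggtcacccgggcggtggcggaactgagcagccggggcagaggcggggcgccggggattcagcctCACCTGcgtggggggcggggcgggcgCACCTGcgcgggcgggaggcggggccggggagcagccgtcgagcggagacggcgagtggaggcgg
Krt18: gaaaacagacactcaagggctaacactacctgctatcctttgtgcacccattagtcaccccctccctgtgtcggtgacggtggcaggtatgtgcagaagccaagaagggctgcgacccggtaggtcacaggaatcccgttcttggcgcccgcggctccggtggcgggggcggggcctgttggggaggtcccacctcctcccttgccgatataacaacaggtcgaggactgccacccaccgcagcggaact
The Epcam window held 1 match, Cldn7 and Ap1m2 held 4 each and Tmem30b held 3. Krt18 was the lower epithelial gene whose window held 0.

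Mesenchymal transition genes moved in part. Of 17 tested, 7 were higher, 1 was lower and 8 were similar, with a median difference of 0.89 log2 units. Zeb2, a repressor of E-cadherin, read 7.93 and 7.86 in A1, 8.10 and 7.75 in A2, 2.22 and 2.45 in DAC2 and 2.41 and 2.20 in REF2, higher in both iPS lines by 5.56 to 5.62 log2 units. Zeb1, a second Zeb factor, had line means of 9.0 in A1, 9.24 in A2, 6.35 in DAC2 and 6.57 in REF2. Cdh2, which encodes N-cadherin, read 10.45 and 10.73 in A1, 10.78 and 10.58 in A2, 5.45 and 5.27 in DAC2 and 7.55 and 7.43 in REF2. Cdh2 was lowest in DAC2 and intermediate in REF2, and 1 of its 3 probe sets differed in the other direction. Mmp2, a matrix metalloprotease, lay at 8.15 to 8.45 against 3.38 to 3.65, with its second probe set opposite in sign. Fn1, which encodes fibronectin, was lower, at 8.67 to 8.91 against 12.19 to 12.22. Snai1 had line means of 4.73 in A1, 4.60 in A2, 5.36 in DAC2 and 5.33 in REF2 and was similar, as was Twist2, below 5 in all 8 arrays.

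Fibroblast markers, checked beside Vim, went both ways. Of 27 on the array 25 were tested: 5 were higher (20%), 4 were lower (16%) and 14 were similar. Over all genes the shares were 13% higher and 10.6% lower. The markers' median difference was -0.1. The log2 of their summed linear signal was 11.7 to 11.86 in the iPS arrays, 12.4 to 12.6 in the ES-profile arrays and 16.69 to 16.9 in the fibroblast-profile arrays. Of the 27 markers, 14 lay below 5 in all iPS arrays and 15 in all ES-profile arrays. Col1a1, the chief fibroblast collagen chain, had line means of 4.35 in A1, 4.34 in A2, 4.92 in DAC2 and 4.58 in REF2, against 12.32 and 13 in DAC8 and REF1. Higher members were Fbn1, which encodes fibrillin, at 8.66 to 8.81 against 3.52 to 3.98, Col5a2 at 9.22 to 9.28 against 4.39 to 4.55, and Lox, a collagen cross-linking enzyme, at 6.94 to 7.62 against 2.31 to 2.63. Ccn2, a matricellular protein, was lower, at 3.12 to 4.0 against 9.55 to 9.63. The part of mouse feeder RNA in any of these signals was not tested. In such bulk samples, fewer cells of a type and less RNA per cell cannot be told apart.

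Proneural and Notch genes were mostly higher in the iPS lines. Of 21 tested, 13 were higher, 2 were lower and 2 were similar, with a median difference of 2.59 log2 units. Neurog1, a proneural basic helix-loop-helix factor, read 9.69 and 9.72 in A1, 9.78 and 9.66 in A2, 4.51 and 4.65 in DAC2 and 4.35 and 4.41 in REF2. Notch1, a receptor of the pathway, read 10.26 and 10.43 in A1, 10.41 and 10.34 in A2, 5.19 and 5.28 in DAC2 and 5.05 and 4.91 in REF2. For both genes every iPS array lay above 9 and no ES-profile array lay above 6. Neurod1, a factor downstream of neurogenins, lay at 6.73 to 6.78 against 2.17 to 2.65. Hes5, a Notch target, had line means of 8.12 in A1, 8.59 in A2, 4.60 in DAC2 and 4.54 in REF2, and Dll1, a Notch ligand, had 8.16 in A1, 8.08 in A2, 5.88 in DAC2 and 6.23 in REF2. Hey2, another target of the pathway, was lower, at 4.22 to 5.02 against 9.41 to 9.72. Notch3 at 4.68 to 4.98 against 4.58 to 5.15 and Id2 at 7.89 to 8.40 against 7.47 to 8.51 were similar.

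Neural progenitor and regional transcription factors gave 17 higher, 3 lower and 4 similar genes of 25 tested, with a median difference of 2.74. Pax6, a homeobox factor of eye and forebrain progenitors, read 7.25 and 7.41 in A1, 7.67 and 7.85 in A2, 2.16 and 2.41 in DAC2 and 2.19 and 2.41 in REF2. En2, a midbrain and hindbrain factor, read 11 and 10.83 in A1, 10.80 and 10.82 in A2, 5.26 and 4.86 in DAC2 and 6.27 and 6.51 in REF2. Pax6 was below 5 in all ES-profile arrays, while for En2 the arrays labelled REF2 lay above those of DAC2. Gata2, a zinc finger factor of blood and GABAergic neurons, lay at 9.63 to 9.91 against 3.34 to 4.91, and its second probe set differed by -0.37. Gata3 lay at 7.62 to 7.72 against 2.66 to 3.04. Nes, the progenitor filament nestin, had line means of 9.70 in A1, 9.79 in A2, 5.50 in DAC2 and 5.93 in REF2, and Fabp7, a radial glial lipid carrier, lay at 6.70 to 7.10 against 2.24 to 2.52. Lower members were Gbx2 and Zic2, the latter at 6.04 to 6.29 against 7.24 to 7.51. Zic2 lost its call without the second A1 array. Pou3f2, at 4.49 to 4.67 against 4.78 to 5.11, and Pax8 were similar.

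The neuronal cytoskeleton and growth cone list held the largest share of higher genes among the 28 function lists. Of 43 tested, 34 were higher, 1 was lower and 5 were similar, and the median difference was 3.66 log2 units. Map2, a dendritic microtubule-associated protein, had line means of 10.68 in A1, 10.67 in A2, 3.43 in DAC2 and 4.40 in REF2. Dcx, which encodes doublecortin of migrating neurons, had 10.20 in A1, 10.27 in A2, 4.70 in DAC2 and 6.80 in REF2. Tubb3, the neuronal beta-tubulin, had 11.93 in A1, 11.88 in A2, 8.20 in DAC2 and 8.30 in REF2, and it lay above 8 in the ES-profile lines too. Ina, the filament internexin, read 11.14 and 11.12 in A1, 11.03 and 11.10 in A2, 4.76 and 5.36 in DAC2 and 4.63 and 4.55 in REF2. Gpm6a and Gpm6b, membrane glycoproteins of growing neurites, lay at 8.90 to 9.17 against 2.15 to 2.31 and at 10.66 to 10.73 against 3.04 to 3.48. For Ina, Gpm6a and Gpm6b the sets of arrays did not overlap, as held for 71.6% of all genes tested. Nefm, a neurofilament chain, was higher at 9.77 to 10.11 against 4.41 to 5.35, whereas Nefl, its partner chain, was similar at 8.78 to 9.11 against 8.44 to 9.31. Stmn1, a tubulin-binding protein of dividing cells, was similar and high, at 12.94 to 13.08 against 12.87 to 12.89.

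Neuronal RNA-binding proteins included 7 higher, 1 lower and 4 similar genes of 13 tested, with a median difference of 1.89. Elavl2 was higher by 3.18 to 3.45 log2 units from a level that was already 8.04 to 8.32 in the ES-profile arrays. Celf4 and Celf5, splicing factors of neurons, lay at 8.48 to 8.73 against 4.35 to 5.65 and at 7.69 to 8.05 against 3.81 to 4.56. Rbfox1, another splicing factor, lay at 6.25 to 6.75 against 4.05 to 4.22, and 2 of its 6 probe sets went the other way. Ptbp1, the splicing repressor that non-neuronal cells express, was similar at 10.74 to 10.84 against 10.85 to 10.88.

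Synapse and neurosecretion genes gave 16 higher, 1 lower and 5 similar of 24 tested, with a median difference of 2.63. Gad1, which makes the transmitter GABA, read 8.21 and 8.29 in A1, 8.26 and 8.37 in A2, 2.10 and 2.28 in DAC2 and 2.67 and 2.67 in REF2. Snap25, a SNARE protein of vesicle fusion, read 7.42 and 7.61 in A1, 7.68 and 7.52 in A2, 2.65 and 3.02 in DAC2 and 2.82 and 2.92 in REF2. Both were below 5 in all ES-profile arrays and above 7 in all iPS arrays. Chgb, a granin of secretory granules, was higher at 7.13 to 7.55 against 3.21 to 3.36, while Scg2, another granin, was lower at 3.02 to 3.69 against 6.92 to 7.83. Syn1, at 5.54 to 5.70 against 5.07 to 5.35, was similar. Of 29 ion channel and receptor genes on the array only 10 were tested; 5 were higher, 0 were lower and 3 were similar. Gria3, an AMPA glutamate receptor subunit, lay at 7.40 to 7.72 against 2.04 to 2.51, and Scn3a, a sodium channel, at 7.73 to 8.15 against 3.53 to 3.69. Gria3 means were 7.64 and 7.45 in DAC8 and REF1, so its higher level was not particular to the iPS lines. Scn3a means there were 3.37 and 3.25. Grin1 and Grin2b, subunits of the NMDA receptor, were similar, at 5.0 to 5.57 against 5.41 to 5.64 and 4.79 to 5.26 against 5.13 to 5.38.

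**Figure D4:**
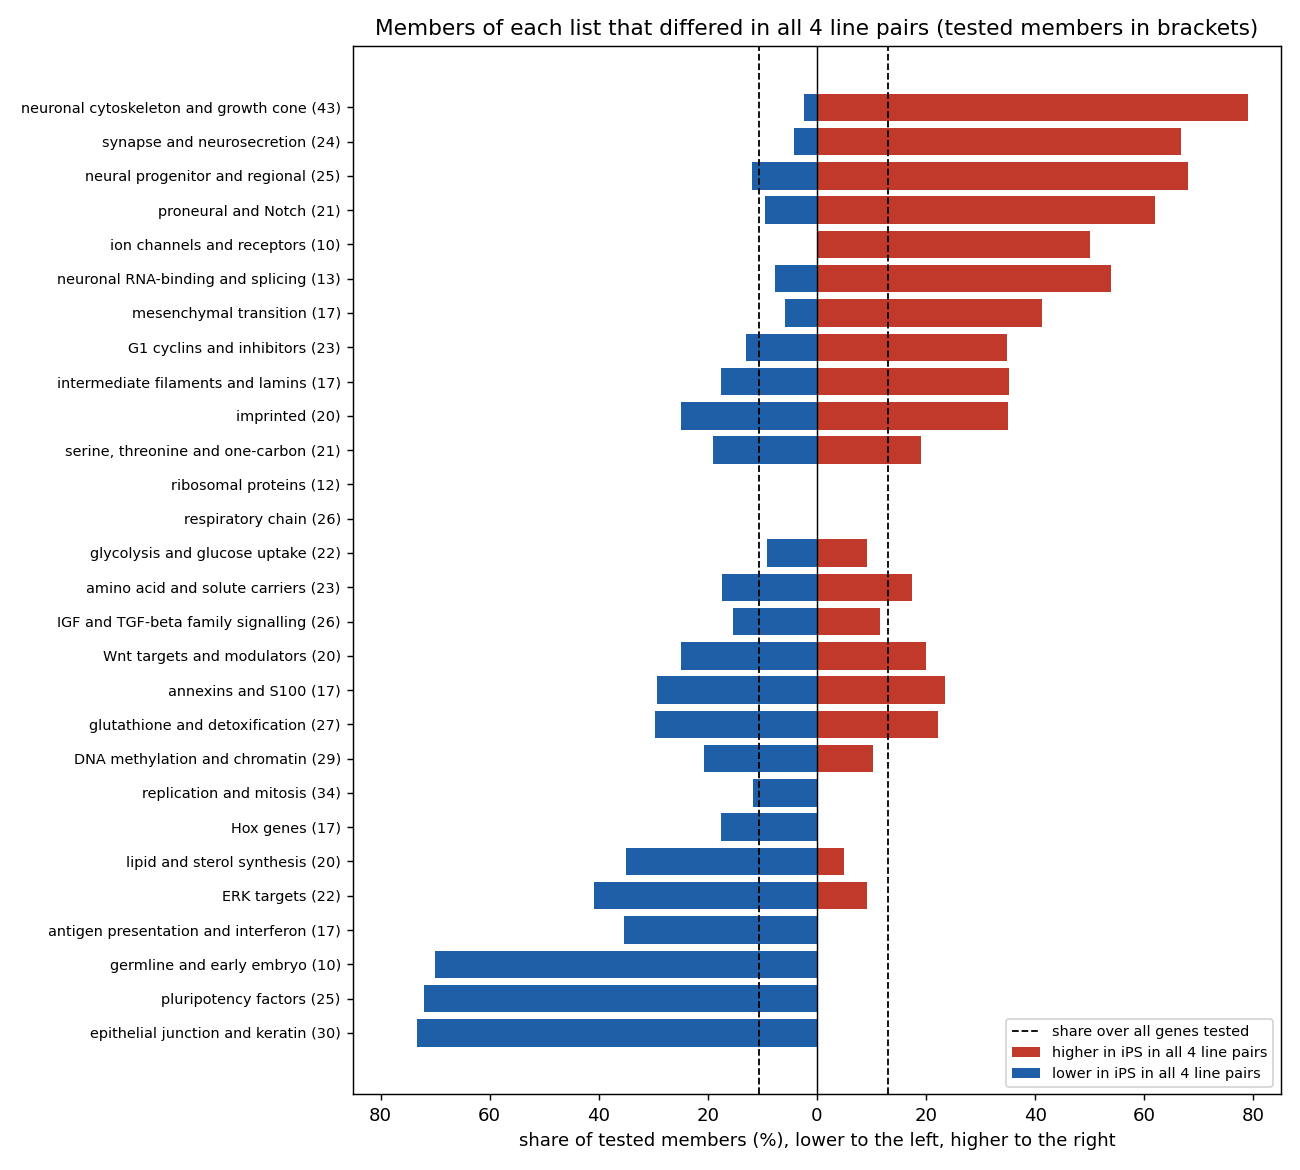
Share of the tested members of each of 28 function lists (rows, tested members in brackets) that were lower (blue, left) or higher (red, right) in the iPS lines in all 4 line pairs; the x axis is percent and the dashed lines are the shares over all genes, 10.6% lower and 13% higher. Neuronal lists extend furthest to the right, and the epithelial, pluripotency and germline lists furthest to the left.

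Targets of ERK signalling, the pathway that 2i medium blocks at MEK, were more often lower than higher. Of 22 tested, 9 were lower (40.9%), 2 were higher (9.09%) and 6 were similar, with a median difference of -0.52. Over all genes the shares were 10.6% lower and 13% higher. Etv5, an ETS factor downstream of fibroblast growth factors, read 2.89 and 3.15 in A1, 2.91 and 3.19 in A2, 10.06 and 10.03 in DAC2 and 9.70 and 9.56 in REF2. Etv4 lay at 2.74 to 3.10 against 8.19 to 8.99, and Spry2, a feedback inhibitor, had line means of 7.59 in A1, 7.38 in A2, 10.11 in DAC2 and 10.14 in REF2. These 3 genes were lower in both iPS lines. Egr1, an immediate early gene, read 9.69 and 9.93 in A1, 7.64 and 7.87 in A2, 3.65 and 3.80 in DAC2 and 5.09 and 4.86 in REF2; it was higher in both iPS lines, and A1 lay above A2. Jun was higher as well, at 8.91 to 9.07 against 4.76 to 5.98. Myc read 3.42 and 3.72 in A1, 3.80 and 3.81 in A2, 6.60 and 6.43 in DAC2 and 8.64 and 8.47 in REF2, lower in the iPS lines and with REF2 above DAC2.

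Wnt targets and modulators included 5 lower (25%), 4 higher (20%) and 9 similar genes of 20 tested. Over all genes the shares were 10.6% lower and 13% higher. Axin2, a feedback inhibitor and common readout of the pathway, was lower at 5.51 to 5.98 against 8.16 to 8.44. Lef1, a transcription factor of the pathway, was lower at 6.12 to 6.54 against 9.82 to 10.16, as were Cdx1 and Cdx2, at 3.09 to 4.62 against 6.51 to 7.90 and at 4.44 to 4.96 against 8.15 to 9.86. Sfrp2, a secreted Wnt inhibitor, was higher at 8.39 to 8.59 against 3.01 to 3.28. Ctnnb1, which encodes beta-catenin, was similar at 12.60 to 12.65 against 12.43 to 12.58. In the IGF and TGF-beta family, 4 genes were lower, 3 were higher and 13 were similar of 26 tested. The shares, 15.4% lower and 11.5% higher, were near those over all genes. Bmp4, a ligand, was lower at 4.72 to 5.35 against 10.34 to 10.54, and Bambi, a pseudoreceptor that dampens the pathway, at 4.95 to 5.46 against 7.25 to 7.61. Igf1r, the receptor of insulin-like growth factors, was lower at 4.33 to 4.74 against 7.05 to 7.84. Nog, a BMP antagonist, was higher at 4.73 to 5.82 against 2.65 to 3.13.

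G1 cyclins and inhibitors gave 8 higher, 3 lower and 9 similar genes of 23 tested. Besides Ccnd2, the inhibitor Cdkn2a was higher at 9.37 to 9.55 against 5.05 to 5.46, and the imprinted inhibitor Cdkn1c at 10.03 to 10.53 against 6.71 to 7.77. Gadd45b, a stress-induced gene, was lower at 5.97 to 6.70 against 9.40 to 10.07. Of 34 replication and mitosis genes tested, 26 were similar (62.3% over all genes), 4 were lower and 0 were higher. Pclaf, the PCNA clamp-associated factor among the 10 highest genes, was not in that list. Its levels were 10.86 to 11.58 against 4.02 to 4.61, with means of 10.64 and 10.50 in DAC8 and REF1. Pcna at 12.20 to 12.30 against 12.09 to 12.26 and Aurkb at 9.61 to 9.73 against 9.70 to 9.86 were similar. The lower members Mcm2, Mcm5, Cdt1 and Birc5 differed by 1.02 to 1.70, 1.07 to 1.41, 1.04 to 1.18 and 1.01 to 1.18 log2 units. Mcm2, Cdt1 and Birc5 lost the call when 1 array was left out.

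All 26 respiratory chain genes and all 12 ribosomal protein genes tested were similar; Cox4i1, a subunit of cytochrome oxidase, lay at 11.54 to 11.58 against 11.50 to 11.60, and Rpl19 at 13.50 to 13.53 against 13.48 to 13.57. Of 22 glycolysis genes, 15 were similar, near the 62.3% over all genes, while 2 were higher and 2 were lower. Eno2, the neuronal enolase, was higher at 8.17 to 9.15 against 4.52 to 4.78, but its means in DAC8 and REF1 were 8.30 and 8.79. Its higher level was thus not particular to the iPS lines. Hk2, a hexokinase, was lower at 6.25 to 6.79 against 8.69 to 8.94. Gapdh was similar at 12.86 to 12.92 against 13.06 to 13.20. In serine, threonine and one-carbon metabolism, 4 genes were lower, 4 were higher and 8 were similar of 21 tested. Each direction held 19%, against 10.6% lower and 13% higher over all genes. Tdh, the threonine dehydrogenase known for its high expression in rodent ES cells, read 8.0 and 7.99 in A1, 7.72 and 7.70 in A2, 12.45 and 12.43 in DAC2 and 12.90 and 12.88 in REF2. Gcat, the next enzyme of threonine breakdown, lay at 6.94 to 7.17 against 9.20 to 10, and Amt of the glycine cleavage system at 5.85 to 6.15 against 9.63 to 9.99. The 3 genes were lower in both iPS lines and stayed above 5 in every iPS array. Enzymes of the transsulfuration route went opposite ways, with Cbs lower at 4.11 to 4.39 against 6.59 to 7.07 and Cth higher at 7.41 to 7.60 against 2.69 to 3.06.

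Glutathione and detoxification genes went both ways. Of 27 tested, 8 were lower, 6 were higher and 10 were similar. Beside Gpx2, Hmox1, a heme oxygenase, was lower at 6.54 to 6.74 against 10.59 to 11.21. Mgst1, a microsomal glutathione transferase, read 12.19 and 12.18 in A1, 12.01 and 11.98 in A2, 5.65 and 5.31 in DAC2 and 6.14 and 5.87 in REF2. Gstm5 lay at 9.44 to 9.56 against 2.55 to 3.19 and Gstm1 at 8.93 to 9.40 against 4.04 to 4.79. The 3 transferases were higher in both iPS lines. Gstm genes belong to 1 family, and whether their probes share signal was not tested. Txnrd1 was similar at 9.87 to 9.94 against 9.84 to 9.98. Lipid and sterol genes gave 7 lower, 1 higher and 11 similar of 20 tested, with Fasn, the fatty acid synthase, lower at 10.31 to 10.41 against 11.61 to 11.64 and Fabp5, a fatty acid carrier, higher at 12.94 to 13.07 against 8.40 to 9.67. Of 23 amino acid and solute carriers tested, 4 were lower, 4 were higher and 9 were similar. Each direction held 17.4%, against 10.6% lower and 13% higher over all genes. Slc15a1, a peptide transporter of epithelia, lay at 2.44 to 2.88 against 7.99 to 8.75. Slc1a1, a glutamate transporter of neurons and epithelia, was lower at 4.08 to 4.37 against 8.96 to 9.45, and Slc1a3, the glial glutamate transporter, was higher at 7.52 to 7.96 against 4.63 to 4.76.

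Most germline and early embryo genes tested were lower. Of 15 on the array 10 were tested; 7 were lower, 0 were higher and 2 were similar, with a median difference of -2.02. Rhox5, an X-linked homeobox gene of germ cells and early embryos, read 4.84 and 4.82 in A1, 4.95 and 4.79 in A2, 11.86 and 11.78 in DAC2 and 11.54 and 11.52 in REF2. Sycp3, a protein of the synaptonemal complex of meiosis, lay at 2.92 to 3.64 against 9.07 to 10. Tex15, a testis protein of the piRNA pathway, lay at 3.39 to 4.06 against 10.88 to 11. None of the 3 reached 5 in an iPS array. Mov10l1 and Asz1, further piRNA genes, were lower at 2.48 to 3.19 against 5.08 to 5.33 and 3.46 to 3.91 against 5.27 to 5.89. Chromatin genes gave 6 lower (20.7%), 3 higher (10.3%) and 13 similar of 29 tested. Over all genes the shares were 10.6% lower and 13% higher. Ezh1, a histone methyltransferase, was lower at 6.98 to 7.06 against 9.74 to 10.09, Cbx7, a Polycomb reader, was lower at 4.35 to 4.65 against 8.26 to 8.69, and Tdg, a DNA glycosylase, was higher at 10.53 to 10.64 against 8.55 to 8.65. Dnmt1, the maintenance methyltransferase, and Eed, a core Polycomb subunit, were similar.

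Imprinted genes went both ways, with 7 higher (35%), 5 lower (25%) and 4 similar of 20 tested. Over all genes the shares were 13% higher and 10.6% lower. Ndn, which encodes necdin, read 11.13 and 11.09 in A1, 11.33 and 11.29 in A2, 6.79 and 6.79 in DAC2 and 5.79 and 5.63 in REF2. Peg12 lay at 10.26 to 10.51 against 3.96 to 4.89 and Nap1l5 at 8.80 to 9.17 against 3.38 to 4.16. The 3 genes were higher in both iPS lines. Slc38a4 was lower at 5.39 to 6.02 against 8.50 to 8.79. Igf2, a paternally expressed growth factor, was similar at 5.05 to 5.49 against 5.91 to 6.11, and REF1 had a mean of 12.61. Grb10 was higher at 6.26 to 6.76 against 3.12 to 3.53, but only 1 of its 3 probe sets went that way. Of 17 Hox genes tested, 3 were lower (17.6%, against 10.6% over all genes), 0 were higher and 9 were similar. Hoxd8 and Hoxd9 were lower, at 2.55 to 3.38 against 7.05 to 7.67 and 4.02 to 4.44 against 6.37 to 7.26. Similar members include genes not shown to be above background in the compared arrays. Hoxc5 lay at 3.78 to 4.10 against 3.92 to 4.01, and Hoxc8 at 1.84 to 2.18 against 1.97 to 2.35. They were tested through DAC8 and REF1, with means of 6.39 and 6.57 for Hoxc5 and 7.16 and 6.70 for Hoxc8.

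Antigen presentation and interferon genes held no higher member. Of 17 tested 6 were lower, 5 were similar and 6 were neither, with a median difference of -0.96. Gbp2, a guanylate-binding protein induced by interferon, read 2.89 and 3.17 in A1, 3.02 and 3.13 in A2, 10.05 and 9.95 in DAC2 and 10.36 and 10.21 in REF2. Psmb9, an immunoproteasome subunit, lay at 2.37 to 2.81 against 5.61 to 6.71, Irf1, an interferon regulatory factor, at 4.33 to 5.04 against 8.24 to 8.37, and Ifitm1 at 8.39 to 9.23 against 12.25 to 12.44. These 4 genes were lower in both iPS lines, Ifitm1 from above 12 to above 8. B2m, the light chain of class I molecules, was similar at 11.84 to 11.92 against 11.72 to 12.37. Annexin and S100 genes gave 5 lower (29.4%), 4 higher (23.5%) and 4 similar of 17 tested, against 10.6% lower and 13% higher over all genes. Anxa1 was higher at 9.63 to 9.92 against 4.21 to 4.97. Anxa3 was lower at 3.10 to 3.56 against 8.72 to 9.67, and its call was lost when every probe set that reached 5 had to pass. S100a11 was lower at 8.42 to 8.47 against 11.43 to 11.77. Of 17 intermediate filament and lamin genes tested, 6 were higher, 3 were lower and 7 were similar.

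Markers of further cell types were checked beside the neural result. The log2 sum of 13 macrophage and blood markers was 7.83 to 8.11 in the iPS arrays and 8.53 to 8.99 in the ES-profile arrays; 11 of the 13 lay below 5 in all iPS arrays. The 10 astrocyte markers summed to 11.57 to 11.74 and 12.57 to 13.27, and 4 of them lay below 5 in all iPS arrays. Of the 6 astrocyte markers tested, 3 were higher, namely Fabp7 and Slc1a3, with the levels given above, and S100b, at 4.60 to 5.26 against 3.09 to 3.43, and Glul, a glutamine synthetase, was lower at 9.42 to 9.59 against 11.31 to 12.04. The 10 oligodendrocyte markers summed to 9.92 to 10.03 and 7.6 to 8.3, with 7 below 5 in all iPS arrays. Their sum was 10.55 to 10.64 in the fibroblast-profile arrays, so the higher sum was not particular to the iPS lines. Of 4 tested, 2 were higher, Pdgfra at 9.28 to 9.54 against 4.26 to 6.47 and Cnp at 7.60 to 7.89 against 5.81 to 6.65. Cspg4 and Sox10 were similar and below 5 in all 8 arrays. The 10 neural crest and sensory markers summed to 10.72 to 10.89 and 11.11 to 11.19. Among neural crest markers Tfap2b was higher at 9.55 to 9.89 against 4.33 to 4.77, while Mitf was lower at 5.72 to 5.82 against 10.78 to 10.81 and Sox10 stayed below 5 in all 8 arrays. The 12 endothelial markers summed to 9.55 to 9.69 and 9.75 to 10; Tek, an angiopoietin receptor, was higher at 8.82 to 9.09 against 2.30 to 2.67 and Pecam1 was lower at 3.31 to 3.90 against 7.76 to 8.39. The 12 trophoblast markers summed to 10.04 to 10.15 and 11.38 to 11.56, the 19 primitive endoderm markers to 10.74 to 10.92 and 11.36 to 11.75, and the 13 muscle markers to 7.78 to 7.87 and 7.75 to 7.93. The 10 primed pluripotency markers summed to 8.63 to 8.85 and 10.54 to 10.71. The part of other cell types in the differences above was not tested.

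DAC2 and REF2 did not agree for every gene. Abcg2, Ackr3, Camk2d and Pkib were called in all 4 line pairs with opposite signs, above DAC2 and below REF2 in both iPS lines (0.0364% of genes tested). Abcg2, a drug efflux transporter, read 7.16 and 7.04 in A1, 7.01 and 7.30 in A2, 5.92 and 5.90 in DAC2 and 9.11 and 8.84 in REF2. Eif2s3y, a Y-linked translation factor subunit, read 10.50 and 10.39 in A1, 10.62 and 10.23 in A2, 2.42 and 2.61 in DAC2 and 10.67 and 10.74 in REF2, so it was below 5 in DAC2 and above 10 in the other 3 lines. Xist, the RNA of the inactive X chromosome, was below 5 in A1, A2 and DAC2, read 4.88 and 5.01 in the arrays labelled REF2, and had means of 10.26 and 10.44 in DAC8 and REF1. Pdgfra, a growth factor receptor, read 9.47 and 9.54 in A1, 9.28 and 9.44 in A2, 4.46 and 4.26 in DAC2 and 6.26 and 6.47 in REF2. Its levels lay in the order DAC2, REF2 and the iPS lines, with no overlap of REF2 with either side.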

How the data were processed

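RNA (about 100 ng) was labelled with biotin through an Affymetrix kit, per the labels' protocols. For 31099 probe sets the authors deposited log2 signals; the submitters' processing notes name RMA, with Partek 6.2. RMA compresses differences of dim genes. Values (1.45 to 14.12) were used as deposited.

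Of the probe sets, 20832 had 1 gene symbol, 436 had several and 9831 were unlisted. For each of 14218 genes, the probe set of highest average over 12 arrays was kept, and 3217 genes whose line means were all under 5 were left out. A limma fit (version 3.58.1, R 4.3.3) over all 12 arrays took the 6 lines as factor levels; statistics were moderated by empirical Bayes, and p-values of 11001 genes were adjusted by Benjamini-Hochberg. The fit was tested on simulated data.

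The members, the 39 gene lists and the tests were chosen with earlier results of these data known. Named genes were the 5 markers, the 10 with the largest shared difference in each direction, up to 5 called and 3 similar members per list, Sox2, Klf4, Myc, sex-linked genes and genes split between DAC2 and REF2. List members named with line means (such as Map2, Zeb1 or Cldn7) fall outside that rule and were added after their values were seen. Alternatives were 2 normalizations, other filters, other uses of probe sets, 8 arrays alone, an intensity trend, a replicate block, a 2-unit rule, no p, and each array left out.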

Additional observations from a re-analysis of the deposited data

Results flagged for a closer look

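Among the 263 named genes, 9 differed by at least 2 log2 units between DAC2 and REF2, so the size of their iPS difference depended on which ES-profile line was used. Genes named outside that set were not screened for this, and Dcx among them also differed between DAC2 and REF2 by at least 2 log2 units. Over all genes tested, 440 (4%) differed between these lines by at least 1 log2 unit. REF2 was chosen by its profile, so the differences, given as DAC2 minus REF2, are a description without a test. The Abcg2 difference was -3.06 log2 units, that of Ackr3, a chemokine receptor, -2.6, that of Camk2d, a calmodulin-dependent kinase subunit, -2.29 and that of Pkib, an inhibitor of protein kinase A, -2.25. Both iPS lines lay above DAC2 and below the arrays labelled REF2 for these 4 genes. Eif2s3y differed by -8.19 and Xist by -2.14. Cdh2 differed by -2.13, Myc by -2.04 and Pdgfra by -2, and for these 3 the direction of the iPS difference was the same against both lines.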

How the results depend on the processing

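Without 1 array, the calls ranged from 3248 to 3303 for A1 against DAC2, 3324 to 3407 for A1 against REF2, 3301 to 3334 for A2 against DAC2 and 3408 to 3470 for A2 against REF2. The shared higher genes ranged from 1401 to 1436 and the shared lower genes from 1136 to 1172. The 2-unit rule gave 674 higher and 480 lower genes, by its construction. The other alternatives gave 1247 to 1910 higher and 1083 to 1514 lower calls. Where every probe set was used, probe sets and not genes were counted, so the upper ends are not gene counts. A shift to equal medians, which moved the median difference of all genes by -0.08, gave 50.6% higher among shared calls, against 55.1% as deposited.

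The main fit did not pair arrays by replicate number. Correlations of same-numbered deviations were -0.08 to 0.24 over 15 pairs of lines, and 3 exceeded 0.1. Whether some lines shared a replicate component was not tested further. With the replicate block, A1 against DAC2 gave 3275 genes and all counts were as without it, since 0 line differences of 1 log2 unit missed the p threshold in either fit.

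Of 159 named genes called, 14 lost the call in at least 1 of 22 settings and 0 reversed. Abca1, Ccne2, Flt1 and Grb10 lost it with the mean of probe sets and with every probe set required to pass, and Cnp there, with equal medians and without 1 A1 array. Anxa3, Cdh2, Klf2 and Tal1 lost it in the latter setting only. That setting tested only probe sets with a line mean of at least 5, so dimmer probe sets, such as the second of Gap43, did not enter it. Birc5 and Mcm2 lost it with quantile normalization and without 1 array, and Cdt1, Pdk3 and Zic2 without 1 array. Of 921 called genes with several probe sets, 173 had a probe set of the other sign. The number of arrays per line limits the precision.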
